A study of Mus musculus with 24 samples.

Results

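RGS proteins (regulators of G-protein signalling) are described here through 10 of their genes, Rgs2, Rgs4, Rgs5, Rgs6, Rgs7, Rgs8, Rgs10, Rgs12, Rgs14 and Rgs16, taken by name from the deposited expression table. All 10 were among its 32310 rows. The table holds RNA levels of 3 kinds of cortical projection neuron purified by fluorescence-activated sorting from CD1 mice, an outbred laboratory strain with no mutation or treatment named in the labels. Callosal neurons link the cerebral hemispheres. Subcerebral neurons project below the cortex to the spinal cord and brainstem, and the axons of corticothalamic neurons run to the thalamus. Each subtype was taken 4 times: at embryonic day 15 (E15), day 16 (E16) and day 18 (E18), and on day 1 after birth (P1), giving 12 groups. The labels list 24 libraries, 2 a group, but the table has 1 pooled value a group, so no spread between libraries, SD or n can be given. How the cells were marked for sorting, how many animals were pooled, and whether both libraries of a group had their own animals: on these points the sources used here give nothing.

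RGS proteins switch off signalling from G-protein-coupled receptors: their RGS domain binds the active, GTP-loaded G-alpha subunit and speeds the hydrolysis of its GTP. Members of the R4 subfamily (Rgs2, Rgs4, Rgs5, Rgs8 and Rgs16) are small proteins with little beside that domain. R7 members (Rgs6 and Rgs7) work as complexes with the G-beta-5 subunit encoded by Gnb5, and are mostly neuronal. Among R12 members, Rgs12 and Rgs14 are large scaffolds with further domains and Rgs10 is small. In the brain these genes are known for tuning the speed and size of responses to neurotransmitters such as glutamate, acetylcholine, serotonin and opioids.

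Rgs4, Rgs8 and Rgs16 had the largest fitted differences between subtypes of the tested members, and their promoters are shown for that reason. Rgs8 and Rgs16 are also direct neighbours among coding genes on chromosome 1, as are Rgs4 and Rgs5, and 6 of the 10 members lie on that chromosome. The windows run from 250 bases before to 50 bases after the annotated start and come from RefSeq on GRCm38.p6, a different build from the mm9 the table was made on. They lie at chr1:169747593-169747892 (minus strand) for Rgs4, at chr1:153652787-153653086 (plus strand) for the first of 3 Rgs8 starts, and at chr1:153740103-153740402 (plus strand) for Rgs16. Capitals mark TATAAA (the core promoter box), TGACG (the core of a cyclic AMP response element) and GGGCGG (a GC box), each on either strand.

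Rgs4: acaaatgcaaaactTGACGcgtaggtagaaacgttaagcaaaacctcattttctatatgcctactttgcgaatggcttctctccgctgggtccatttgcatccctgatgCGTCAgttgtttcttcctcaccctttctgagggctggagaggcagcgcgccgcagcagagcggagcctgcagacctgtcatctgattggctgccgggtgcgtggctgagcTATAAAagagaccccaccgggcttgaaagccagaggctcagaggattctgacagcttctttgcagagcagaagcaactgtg

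Rgs8: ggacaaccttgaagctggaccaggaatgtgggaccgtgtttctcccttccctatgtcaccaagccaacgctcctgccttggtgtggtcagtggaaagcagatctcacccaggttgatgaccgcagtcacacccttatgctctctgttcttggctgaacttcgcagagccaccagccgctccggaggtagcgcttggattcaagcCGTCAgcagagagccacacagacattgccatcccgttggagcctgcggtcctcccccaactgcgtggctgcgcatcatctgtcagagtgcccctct

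Rgs16: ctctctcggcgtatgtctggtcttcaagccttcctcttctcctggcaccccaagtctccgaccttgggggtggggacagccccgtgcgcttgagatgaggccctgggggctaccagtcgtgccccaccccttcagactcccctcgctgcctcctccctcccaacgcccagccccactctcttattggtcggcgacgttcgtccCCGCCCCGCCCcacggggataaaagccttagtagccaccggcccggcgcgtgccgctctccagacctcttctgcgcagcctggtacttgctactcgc

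The Rgs4 window held 1 TATAAA, beginning at base 220, and 2 TGACG. The Rgs8 window held 1 TGACG and no GC box, and the Rgs16 window held 2 overlapping GC boxes and neither of the other elements. TATAAA occurred in 13.6% of all 32851 RefSeq mouse windows of this length, TGACG in 20.8% and GGGCGG in 35.7%. The full palindrome TGACGTCA, which contains TGACG, occurred in 1.79% of windows, a T-box site AGGTGTGA in 1.28% and a SOX site AACAAT in 10.7%, and none of these was in the 12 windows found for 9 of the members. An E-box CANNTG, present in 72.3% of all windows, occurred 5 times in the Rgs4 window, 2 times in that of Rgs8 and 0 times in that of Rgs16. These matches are descriptions of letters and not evidence of binding. Rgs14 is named only.

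The values are taken to be FPKM, that is, fragments scaled to transcript length and to the mapped fragments of the library, so levels can be set side by side between genes. Column sums ran from 355965 to 473871, and read depth is unknown. Known subtype genes matched the labels. The summed level of 6 callosal markers lay between 701 and 963 FPKM in callosal, 40.0 and 113 in subcerebral, and 54.8 and 115 in corticothalamic neurons. The 4 subcerebral markers, among them Fezf2, summed to 41.5 to 119.6 FPKM in callosal, 451 to 619 in subcerebral and 181 to 280.1 in corticothalamic neurons. The 4 corticothalamic markers, among them Tbr1 and Tle4, summed to 50.7 to 89.3 FPKM in callosal and 433 to 626 in corticothalamic neurons. In subcerebral neurons they stood at 324.7 FPKM at E15 and at 94.5, 50.9 and 37.9 FPKM at E16, E18 and P1, so the E15 subcerebral group stands apart in its corticothalamic markers. Tbr1 alone made up 222.9 FPKM of the E15 sum and 47.9, 29.2 and 15.7 FPKM of the later sums. The E16 callosal group stands apart in its microglial markers, which summed to 46.3 FPKM there and to between 4.23 and 23.2 FPKM in the other groups. The E15 callosal group stands apart in markers of interneurons, which are not projection neurons. Dlx1 stood at 20.0 FPKM there and at no more than 6.32 elsewhere, Lhx6 at 16.3 and no more than 3.91, and Gad1 at 7.53 and no more than 2.31 FPKM. Sst was at 12.3 FPKM there but at 18.4 in P1 corticothalamic neurons, and Npy was lower there than in every group but E15 subcerebral. The part of these cells in the E15 callosal values of the RGS genes was not tested. The fits were repeated without each of these 3 values.

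Differences between subtypes were fitted for all genes with limma on log2(FPKM + 1), with stage and subtype as terms. Since each group has 1 value, the error of this fit is how unevenly a difference held over the 4 stages, not the spread between libraries. A gene was tested if it reached 1 FPKM in at least 2 groups, which 13946 genes did, 8 members among them. Rgs5 and Rgs14 did not. Calls were made at a Benjamini-Hochberg adjusted p under 0.05 over all tested genes, and fold changes on this scale understate those of low genes. A lower level in a sorted pool can come from fewer cells that carry the transcript or from less of it per cell, which cannot be told apart.

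Summed over the 10 genes, transcript levels were highest in corticothalamic neurons at every stage. This does not extend to the other listed RGS genes, which summed highest in subcerebral neurons at E16, E18 and P1. Those sums were 56.1, 100.2 and 114.0 FPKM in subcerebral and 47.6, 63.7 and 75.6 FPKM in corticothalamic neurons. For the 10 genes the sums were as follows. The sum was 54.2, 62.0, 82.7 and 97.0 FPKM in callosal neurons at E15, E16, E18 and P1. In subcerebral neurons it was 118, 86.1, 98.2 and 98.6 FPKM, and in corticothalamic neurons 204, 165, 162 and 155 FPKM. Which gene led differed between groups. In callosal neurons Rgs12 led at all 4 stages, with 73.6% of the sum at E15 and 30.7% at P1. In subcerebral neurons Rgs7 held 47.1% of the sum at P1, and in corticothalamic neurons Rgs16 held 41.4% at E15.

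**Figure D1:**
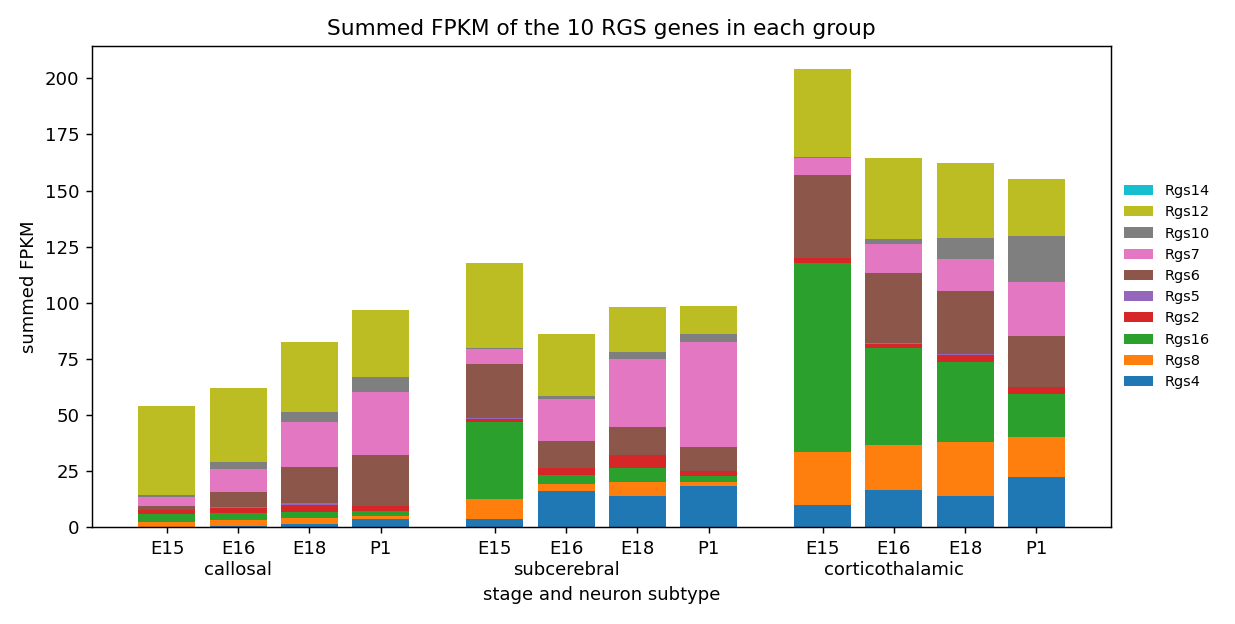
Stacked bars give the summed FPKM of the 10 RGS genes in each of the 12 groups, by stage within subtype, with 1 colour a gene. The corticothalamic bars, 155 to 204 FPKM, stand above the callosal and subcerebral bars of the same stage, and Rgs16 (green) fills much of the E15 corticothalamic bar.

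Rgs4, which acts on the Gi and Gq classes of G-alpha, separated callosal neurons from the other subtypes. It stood at 0.172, 0.331, 1.58 and 3.44 FPKM in callosal neurons at E15, E16, E18 and P1. In subcerebral neurons it stood at 3.55, 15.99, 13.7 and 18.2 FPKM, and in corticothalamic neurons at 10.02, 16.7, 13.7 and 22.6 FPKM. Every callosal value lay below every value of the other subtypes, so the groups did not overlap. The margin was narrow, with 3.44 FPKM in P1 callosal and 3.55 FPKM in E15 subcerebral neurons. The share of all genes with groups separated in this way was not counted. Callosal neurons were 20.6-fold, 48.3-fold, 8.69-fold and 5.30-fold lower than subcerebral neurons at the 4 stages. The callosal values at E15 and E16 lay under 1 FPKM, so the ratios there rest on very low values. The fitted difference of callosal from subcerebral neurons was -2.56 ± 0.29 log2 units (SE of the limma fit, adjusted p = 0.000836), and that of callosal from corticothalamic neurons was -2.97 ± 0.29 (limma, adjusted p = 0.000234). Subcerebral and corticothalamic neurons overlapped: their difference was -0.41 log2 units with a 95% interval of -1.06 to 0.25 (limma, adjusted p = 0.299). At E18 the subcerebral and corticothalamic values were 13.7 FPKM each.

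Rgs16, another R4 member with Gi and Gq activity, was highest in corticothalamic neurons at every stage. It stood at 3.82, 3.14, 2.65 and 2.39 FPKM in callosal neurons over the 4 stages. In subcerebral neurons it stood at 34.2, 4.02, 6.04 and 2.76 FPKM, and in corticothalamic neurons at 84.5, 43.2, 35.5 and 19.0 FPKM. The lowest corticothalamic value exceeded every callosal value and every subcerebral value but that of E15. How many of all genes were separated like this was not counted. Callosal neurons were lower than corticothalamic neurons by 22.1-fold at E15 and 7.97-fold at P1, and the fitted difference was -3.36 ± 0.39 log2 units (limma, adjusted p = 0.000588). Subcerebral neurons were lower than corticothalamic neurons by -2.30 ± 0.39 (limma, adjusted p = 0.00753), a call that was lost without E16 (-2.02, adjusted p = 0.0723) or without E18 (-2.28, adjusted p = 0.0846). The callosal and subcerebral values overlapped and their difference, -1.06 ± 0.39, did not pass (limma, adjusted p = 0.0749). It was smaller without E15 (-0.46, adjusted p = 0.106), without the E15 subcerebral value alone (-0.59, adjusted p = 0.111) and without the E15 callosal value alone (-0.63, adjusted p = 0.149).

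The high E15 subcerebral value of Rgs16 fell in the group that also had 324.7 FPKM of corticothalamic markers, of which Tbr1 made up 222.9 FPKM. Rgs16 was 8.505-fold lower at E16 than at E15 in subcerebral neurons, and the markers were at 94.5 FPKM at E16. Whether corticothalamic cells were in that group, and their part in the E15 value, was not tested.

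Rgs8, whose product favours Gi-class subunits and is known from Purkinje cells and other neurons, followed Rgs16. It stood at 2.10, 2.76, 2.51 and 1.497 FPKM in callosal neurons, at 9.16, 3.13, 6.52 and 1.80 FPKM in subcerebral neurons, and at 23.4, 19.9, 24.4 and 17.6 FPKM in corticothalamic neurons. No corticothalamic value overlapped those of the other subtypes, and the share of all genes separated in this way was not counted. The difference of callosal from corticothalamic neurons was -2.80 ± 0.26 log2 units (limma, adjusted p = 0.000186), and that of subcerebral from corticothalamic neurons was -2.02 ± 0.26 (limma, adjusted p = 0.00269). The difference of callosal from subcerebral neurons was -0.78 ± 0.26 log2 units with an adjusted p of 0.0505 by limma, just outside the threshold. It passed under 4 alternative settings of pseudocount and scaling, and was -0.47 without E15 (adjusted p = 0.103) and -0.50 without the E15 subcerebral value alone (adjusted p = 0.0739). Over the 12 groups, Rgs8 and Rgs16 had a Pearson correlation of 0.94 and a Spearman correlation of 0.94, the highest Pearson value of the 28 pairs of tested members. The points share libraries and stages, so this is a description only.

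Subplate markers, which label early-born neurons beneath the corticothalamic layer, were also highest in the corticothalamic groups when summed. Their 7 genes summed to 12.9 to 42.2 FPKM in callosal, 13.9 to 39.3 in subcerebral and 68.4 to 220.2 in corticothalamic neurons, and 1 of the 7 stayed under 1 FPKM everywhere. Single markers differed: Nr4a2 was highest in E18 callosal neurons (37.3 FPKM) and Tmem163 in P1 subcerebral neurons (33.1 FPKM). Of the 5 tested, 3 were lower and 0 higher in callosal than in corticothalamic neurons, where 16% of all genes were called lower. Their part in the levels of Rgs4, Rgs8 and Rgs16 was not tested.

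Rgs2 and Rgs5 completed the R4 group at low levels. Rgs2, which prefers Gq and is known as a gene induced by neuronal activity, stood at 1.38, 2.38, 3.23 and 2.14 FPKM in callosal neurons. It stood at 1.20, 3.03, 5.75 and 2.22 FPKM in subcerebral neurons and at 2.04, 1.96, 3.27 and 3.24 FPKM in corticothalamic neurons. The subtypes overlapped, their order changed from stage to stage, and none of the 3 differences passed; the largest was -0.21 ± 0.19 log2 units for callosal against subcerebral neurons (limma, adjusted p = 0.414). Immediate early genes, which share this kind of induction, differed among themselves: in subcerebral neurons Npas4 stood at 0.225, 0.890, 3.15 and 1.41 FPKM over the stages, while the 14 listed genes summed to 194, 95.4, 51.8 and 54.7 FPKM.

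Rgs5, a marker of pericytes around blood vessels, lay between 0.0499 and 0.591 FPKM in all 12 groups and was not tested. Its lowest value was in P1 subcerebral and its highest in E18 callosal neurons. The 10 pericyte and mural cell markers summed to 1.35 to 3.88 FPKM in all groups, with 9 of them under 1 FPKM everywhere, none at 0 in every group, and Notch3 the exception.

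**Figure D2:**
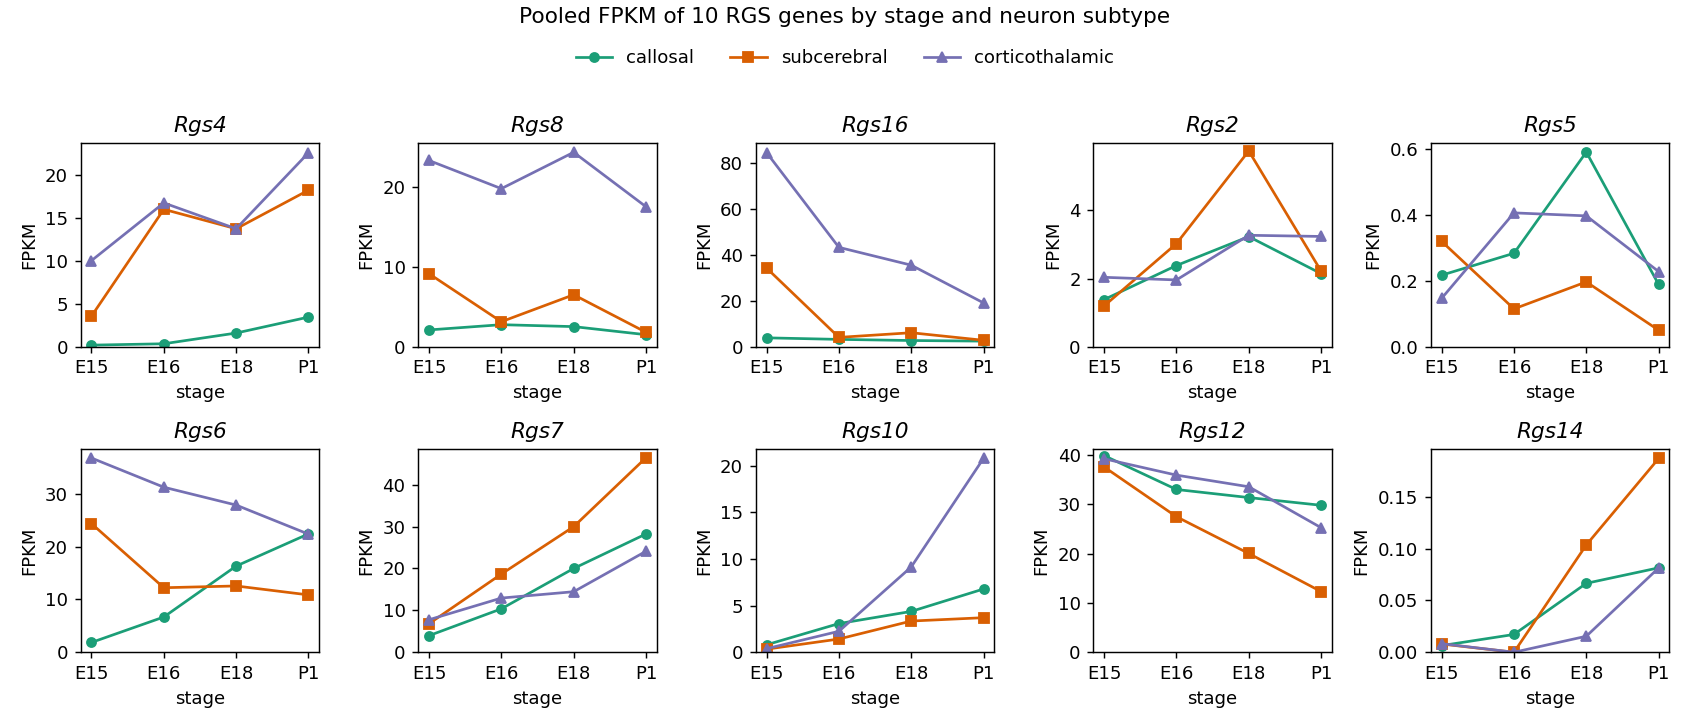
Each panel gives the pooled FPKM of an RGS gene (vertical axis, linear, own scale) at E15, E16, E18 and P1 (horizontal axis) in callosal, subcerebral and corticothalamic neurons. Points are the authors' pooled values and carry no error bars. Rgs8 and Rgs16 show the corticothalamic line apart from the others, and Rgs4 shows the callosal line apart. In the Rgs6 panel the callosal line rises past the subcerebral line and meets the corticothalamic line at P1.

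Of the R7 pair, Rgs7 was highest in subcerebral and Rgs6 in corticothalamic neurons at most stages. Rgs7 stood at 3.97, 10.4, 20.0 and 28.2 FPKM in callosal neurons, at 6.82, 18.7, 30.0 and 46.5 FPKM in subcerebral neurons, and at 7.77, 12.9, 14.5 and 24.1 FPKM in corticothalamic neurons. Callosal neurons were below subcerebral neurons at all 4 stages, by 1.499-fold to 1.80-fold, although the ranges over stages overlapped. The difference was -0.68 ± 0.20 log2 units (limma, adjusted p = 0.0332). It missed the threshold without E16 (adjusted p = 0.156), E18 (0.0858) or P1 (0.104), and with no filter on low genes (0.0548). It also missed without the E16 callosal value alone (-0.63, adjusted p = 0.102) or the E15 callosal value alone (-0.56, adjusted p = 0.0778). Subcerebral neurons exceeded corticothalamic neurons at E16, E18 and P1, with a fitted difference of 0.56 ± 0.20 (limma, adjusted p = 0.0614). That difference passed without E15 (0.81, adjusted p = 0.00364) and without the E15 subcerebral value alone (0.69, adjusted p = 0.0319).

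Rgs6 is known for regulating Gi/o signalling in heart and brain, and its values moved in opposite directions with stage in callosal and corticothalamic neurons. It stood at 1.85, 6.67, 16.3 and 22.4 FPKM in callosal neurons, higher at each stage than at the one before. In subcerebral neurons it stood at 24.4, 12.2, 12.5 and 10.9 FPKM, and in corticothalamic neurons at 36.8, 31.2, 27.9 and 22.4 FPKM, lower at each stage. Callosal neurons were 13.1-fold lower than subcerebral neurons at E15 and 2.06-fold higher at P1. Against corticothalamic neurons they were 19.8-fold lower at E15 and level at P1. Averaged over stages, none of the subtype differences passed: callosal against corticothalamic was -1.63 ± 0.60 log2 units (limma, adjusted p = 0.0718). That difference passed without P1 (-2.18, adjusted p = 0.0471) and without the E15 subcerebral value (-1.63, adjusted p = 0.0477), and was -0.87 without the E15 callosal value (adjusted p = 0.105). Subcerebral against corticothalamic, -0.98 ± 0.60 (adjusted p = 0.238), passed without E15 (-1.12, adjusted p = 0.0399), with only those subtypes in the fit (adjusted p = 0.0145) and without the E15 callosal value (adjusted p = 0.0473). Callosal against subcerebral was -0.65 log2 units (limma, adjusted p = 0.439) and 0.12 without the E15 callosal value (adjusted p = 0.815).

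Whether these differences changed over time was tested by setting the late stages (E18 and P1) against the early stages (E15 and E16). The error of this fit is how unevenly a subtype difference held within a period. A difference that moved steadily from stage to stage therefore adds to the error. For Rgs6 the callosal minus subcerebral difference was 2.64 ± 0.69 log2 units larger late than early (limma, adjusted p = 0.140), and the callosal minus corticothalamic difference 2.53 ± 0.69 larger (adjusted p = 0.176). Neither passed. No member passed in any of the 3 such comparisons by limma, where 0%, 0% and 0.0359% of all tested genes passed. At an unadjusted p under 0.05 stood 2, 3 and 3 members and 3167, 2367 and 2897 of all genes for callosal against subcerebral, callosal against corticothalamic and subcerebral against corticothalamic. Without E16, Rgs6 passed in both callosal comparisons (3.82, adjusted p = 0.00635, and 3.36, adjusted p = 0.0113). It also passed in both without the E16 callosal value alone (3.64, adjusted p = 0.0251, and 3.54, adjusted p = 0.0250), and was smaller without the E15 callosal value (1.63, adjusted p = 0.358, and 1.53, adjusted p = 0.383).

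Rgs10, a small R12 protein also known from microglia, was highest in callosal neurons at E15 and E16 and in corticothalamic neurons at E18 and P1. It stood at 0.801, 3.07, 4.37 and 6.77 FPKM in callosal neurons, at 0.332, 1.42, 3.34 and 3.70 FPKM in subcerebral neurons, and at 0.382, 2.24, 9.13 and 20.8 FPKM in corticothalamic neurons. It was lowest in subcerebral neurons at all 4 stages. Callosal neurons were 2.09-fold higher than corticothalamic neurons at E15 and 3.07-fold lower at P1. Every E15 value lay under 1 FPKM, so the order and ratio at E15 rest on very low single values. Averaged over stages no difference passed; subcerebral against corticothalamic was -0.98 ± 0.33 log2 units (limma, adjusted p = 0.0590), which passed without E15 (-1.29, adjusted p = 0.0212) and without the E15 subcerebral value alone (-1.15, adjusted p = 0.0397). Between early and late stages the difference from corticothalamic neurons moved by -1.55 ± 0.31 for callosal neurons (limma, adjusted p = 0.126) and by -1.48 ± 0.31 for subcerebral neurons (adjusted p = 0.107).

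Microglial markers were measured beside Rgs10. The 11 markers summed to 5.82, 9.06, 7.73 and 6.22 FPKM in corticothalamic neurons, of which Aif1 made up 5.41, 8.34, 6.53 and 5.71 FPKM. In P1 corticothalamic neurons Csf1r stood at 0.0926 FPKM, C1qa at 0.0498 and Cx3cr1 at 0.0396, beside 20.8 FPKM of Rgs10. In callosal neurons the markers summed to 5.59, 46.3, 23.2 and 23.2 FPKM, and in subcerebral neurons to 4.23, 7.48, 5.65 and 5.61 FPKM. At E16 both Rgs10 and the markers were highest in callosal neurons. At E18 and P1 the markers were again highest in callosal neurons, but Rgs10 was highest in corticothalamic neurons. At E15 the markers were highest in corticothalamic neurons and Rgs10 in callosal neurons. The part of microglia in the callosal values of Rgs10 was not tested.

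Rgs12, a multidomain scaffold that also carries binding sites for Ras and G-alpha proteins, had the highest mean level and the smallest ratio of highest to lowest value (3.24) of the tested members. It stood at 39.9, 33.0, 31.4 and 29.8 FPKM in callosal neurons, at 37.6, 27.5, 20.0 and 12.3 FPKM in subcerebral neurons, and at 39.2, 35.9, 33.6 and 25.3 FPKM in corticothalamic neurons. The subtypes were within 1.06-fold of each other at E15, and by P1 subcerebral neurons were 2.05-fold below corticothalamic neurons. Callosal neurons exceeded subcerebral neurons by 0.54 ± 0.17 log2 units (limma, adjusted p = 0.0396), and subcerebral neurons lay below corticothalamic neurons by -0.53 ± 0.17 (limma, adjusted p = 0.0445). Callosal and corticothalamic neurons differed by 0.0099 log2 units, with a 95% interval of -0.37 to 0.39 (limma, adjusted p = 0.970). Both calls were lost without E16 (adjusted p = 0.105 for callosal against subcerebral and 0.134 for subcerebral against corticothalamic neurons), without E18 (0.182 and 0.224) or without P1 (0.127 and 0.0955), and without the E16 callosal value (0.0654 and 0.0601). They were also lost with only the subtypes compared in the fit (0.1005 and 0.0685) and with no filter on low genes (0.0645 and 0.0738). Without P1 the difference of callosal from subcerebral neurons was also smaller, at 0.32 log2 units.

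Rgs14, known from hippocampal area CA2, lay near 0. It was listed at 0 in E16 subcerebral and E16 corticothalamic neurons, and had its highest value, 0.187 FPKM, in P1 subcerebral neurons. It was not tested.

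Counted over the family, callosal neurons differed from subcerebral neurons in 3 of the 8 tested members: Rgs4 and Rgs7 were lower and Rgs12 was higher. Over all genes 29.3% were called in this comparison, so the count is near the background. The median difference was -0.66 log2 units over the 8 members and -0.0057 over all tested genes. Against corticothalamic neurons, callosal neurons were lower in 3 members, Rgs4, Rgs8 and Rgs16, and higher in none, where 31.3% of all genes were called and 16% were called lower. The median difference was -1.03 over the members and 0.013 over all genes. Subcerebral neurons were lower than corticothalamic neurons in 3 members, Rgs8, Rgs12 and Rgs16, and higher in none, where 27.5% of all genes were called and 12.8% were called lower. The median difference was -0.76 over the members and -0.0032 over all genes. The 3 comparisons share their groups of neurons and are not independent. The members were chosen with earlier results of these data known. Their medians are therefore descriptions and not a test of the family.

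The counts of members, and of all genes, depend on the stages used. Callosal against subcerebral neurons gave 1 called member without E16, without E18, without P1 or without the E16 callosal value, and 2 without the E15 callosal value. Subcerebral against corticothalamic neurons gave 6 without E15, 5 without the E15 subcerebral value, 4 without the E15 callosal value, and 1 without E16 or without E18. Calls over all genes moved too. For callosal against subcerebral neurons they fell from 4093 without E16, E18, P1 or the E16 callosal value. For subcerebral against corticothalamic neurons they fell from 3835 without E16 or E18, and rose without E15 or the E15 subcerebral value. The changes in member counts are therefore not particular to the members. Scaling every column to a common sum moved the share of called genes that were higher to 57.7%, 36.8% and 26.5% in the 3 comparisons, against 48.1%, 48.9% and 53.4% as deposited, and turned the direction of no called member.

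**Figure D3:**
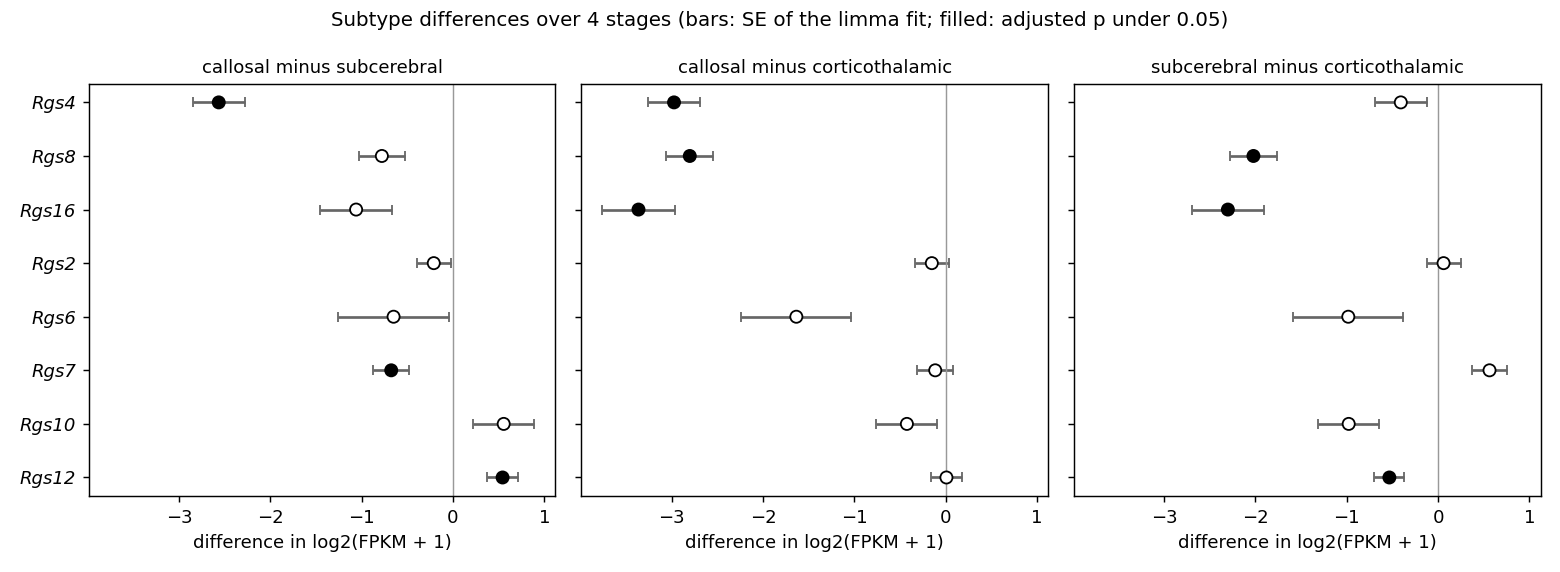
Points give the fitted difference of each tested RGS gene in log2(FPKM + 1), with the SE of the limma fit as bars, for callosal minus subcerebral, callosal minus corticothalamic and subcerebral minus corticothalamic neurons. Filled points passed an adjusted p of 0.05: 3 genes in each panel, with Rgs12 in the left panel the filled point right of 0.

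P1 neurons carried more Rgs10, Rgs7 and Rgs4 than E15 neurons and less Rgs16, Rgs12 and Rgs8, averaged over subtypes. Of the 8 tested members 6 passed, 3 in each direction, in a comparison where 67.4% of all genes were called, 33.8% higher and 33.6% lower at P1, so neither count stands apart from the background. The median difference was 0.45 log2 units over the members and 0.0013 over all genes, a description only, for the reason given above. With a common column sum 40.1% of the called genes were higher at P1, against 50.2% as deposited.

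Rgs10 was 8.46-fold higher at P1 than at E15 in callosal, 11.2-fold in subcerebral and 54.3-fold in corticothalamic neurons, with a fitted difference of 2.64 ± 0.39 log2 units (limma, adjusted p = 0.000428). Rgs7 was 7.12-fold, 6.81-fold and 3.10-fold higher in the same order of subtypes, a difference of 2.23 ± 0.23 (limma, adjusted p = 6.25e-05). Rgs4 was 20.0-fold, 5.13-fold and 2.25-fold higher, a difference of 1.70 ± 0.33 (limma, adjusted p = 0.00203). For Rgs4 most of the subcerebral step came between E15 and E16 (4.50-fold), and the largest callosal step between E16 and E18 (4.77-fold). All E15 values of Rgs10, and the callosal values of Rgs4 at E15 and E16, lay under 1 FPKM. The ratios that start from them rest on very low values.

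Rgs16 was 1.60-fold lower at P1 than at E15 in callosal, 12.4-fold in subcerebral and 4.44-fold in corticothalamic neurons, a difference of -1.94 ± 0.46 log2 units (limma, adjusted p = 0.00524) that missed the threshold without corticothalamic neurons (-1.87, adjusted p = 0.0564). Rgs12 was 1.34-fold, 3.05-fold and 1.55-fold lower, a difference of -0.85 ± 0.19 (limma, adjusted p = 0.00410), which was -0.51 without subcerebral neurons. Rgs8 was 1.40-fold, 5.08-fold and 1.33-fold lower, a difference of -0.85 ± 0.29 (limma, adjusted p = 0.0304). The Rgs8 call was lost without subcerebral neurons (-0.35, adjusted p = 0.0805) and without the E15 subcerebral value alone (-0.48, adjusted p = 0.108), and also without corticothalamic neurons (-1.08, adjusted p = 0.0695).

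Rgs6 did not pass (0.42 ± 0.70 log2 units, limma, adjusted p = 0.614), with 12.1-fold more at P1 than at E15 in callosal neurons but 2.24-fold less in subcerebral and 1.64-fold less in corticothalamic neurons. Without the E15 callosal value the difference was -0.61 (limma, adjusted p = 0.226). Without callosal neurons it was lower at P1 by -0.89 (limma, adjusted p = 0.00804). Rgs2 did not pass either (0.48 ± 0.21, limma, adjusted p = 0.0763). Rgs7 and Rgs12 ran against each other over the 12 groups, with a Pearson correlation of -0.85 and a Spearman correlation of -0.94, as a description of groups that share stages.

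Progenitor and radial glia markers also fell with age. At P1 their 10 genes summed to 19.1 to 26.8 FPKM and at E15 to 59.0 to 80.3 FPKM, and 8 of the 9 tested were lower at P1, where 33.6% of all genes were called lower. Of 9 tested interneuron markers 1 was higher and none lower, where 67.4% of all genes were called, and the 4 oligodendrocyte lineage markers reached at most 3.15 FPKM in any group. The part of these cells in the stage differences was not tested.

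**Figure D4:**
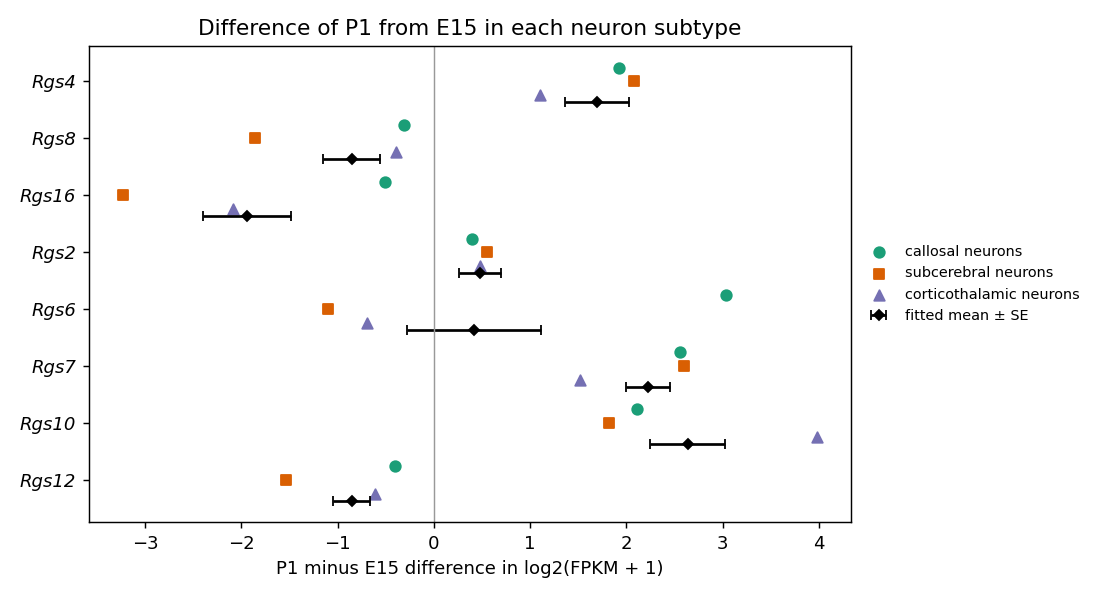
For each tested RGS gene, coloured points give the P1 minus E15 difference in log2(FPKM + 1) in each subtype, and black diamonds the fitted mean over subtypes with its SE. Rgs4, Rgs7 and Rgs10 lie right of 0 in every subtype, Rgs8, Rgs12 and Rgs16 left of 0 in every subtype, and Rgs6 on both sides.

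The remaining RGS genes differed between subtypes too. Of 12 listed, 11 were in the table and 6 were tested. In callosal neurons 5 of the 6 were lower and 1 was higher than in subcerebral neurons, where 29.3% of all genes were called. The exception was Rgs3, an R4 member, at 19.2, 23.5, 18.7 and 15.8 FPKM in callosal, 3.82, 6.45, 13.02 and 12.6 in subcerebral and 1.23, 2.23, 1.97 and 2.13 in corticothalamic neurons. Its order of subtypes was the reverse of that of Rgs4, Rgs8 and Rgs16: callosal exceeded corticothalamic neurons by 2.81 ± 0.27 log2 units (limma, adjusted p = 0.000240). Rgs9, of the R7 subfamily, was lower in callosal than in corticothalamic neurons by -1.67 ± 0.13 (limma, adjusted p = 8.56e-05), and Rgs20, of the RZ subfamily, by -1.33 ± 0.11 (adjusted p = 9.31e-05). Rgs11, also R7, was higher in subcerebral than in corticothalamic neurons by 1.37 ± 0.23 (limma, adjusted p = 0.00689), as Rgs7 was in level at 3 of 4 stages. At P1, 4 of the 6 were higher than at E15 and none lower. The share called in either direction was near the 67.4% of all genes, but over all genes 33.8% were called higher and 33.6% lower. Rgs11 was higher at P1 by 3.18 ± 0.26 (limma, adjusted p = 2.48e-05).

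Gnb5 and Rgs7bp, partners of R7 proteins, were lower in callosal than in corticothalamic and subcerebral neurons. Gnb5, the obligate G-beta partner of Rgs6, Rgs7, Rgs9 and Rgs11, stood at 11.1, 10.5, 12.96 and 19.2 FPKM in callosal, 14.3, 19.2, 24.0 and 35.0 in subcerebral and 16.4, 17.1, 19.2 and 30.5 in corticothalamic neurons. Its difference of callosal from subcerebral neurons was -0.71 ± 0.09 log2 units (limma, adjusted p = 0.00121), and it was higher at P1 than at E15 by 0.94 ± 0.10 (adjusted p = 8.51e-05). Rgs7bp, the membrane anchor of the R7 complexes, differed in callosal from subcerebral neurons by -0.98 ± 0.19 (limma, adjusted p = 0.00651) and from corticothalamic neurons by -1.10 ± 0.19 (adjusted p = 0.00298). In all, 3 of 9 tested partners and G-alpha regulators were lower and 0 higher in callosal against subcerebral neurons, where 15.2% of all genes were called lower, and 4 were lower and 0 higher against corticothalamic neurons, where 16% were. Between subcerebral and corticothalamic neurons 2 were lower, Rgs9bp and Gpsm2, where 12.8% of all genes were. Gpr158, a receptor that binds R7 complexes, stood at 5.24 FPKM in callosal, 1.85 in subcerebral and 0.635 in corticothalamic neurons at P1, and its fitted differences of callosal from subcerebral neurons (0.48 ± 0.26, limma, adjusted p = 0.194) and from corticothalamic neurons (0.76 ± 0.26, adjusted p = 0.0566) did not pass.

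The G-alpha subunits, the substrates of RGS proteins, were called in 4, 2 and 2 of 11 tested genes between subtypes, where 29.3%, 31.3% and 27.5% of all genes were called, and in all 11 with age, where 67.4% were. Of the 11, 4 were lower in callosal than in subcerebral neurons, with Gnaz at -0.57 ± 0.15, Gnas at -0.46 ± 0.10 and Gnao1 at -0.45 ± 0.10 log2 units (limma, adjusted p = 0.0212, 0.00964 and 0.0113). Against corticothalamic neurons 2 were higher, Gnai2 (0.51 ± 0.11, adjusted p = 0.00718 by limma) and Gnaq. All 11 passed between P1 and E15, 9 higher and 2 lower (Gna12 and Gna13), with Gnai1 at 1.67 ± 0.32 (limma, adjusted p = 0.00191). Of 10 G-beta and G-gamma genes tested, 4 were lower in callosal than in subcerebral neurons, with Gng7 at -1.16 ± 0.30 (limma, adjusted p = 0.0216), and 7 were higher at P1 than at E15, where 67.4% of all genes were called and 33.8% were called higher.

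Among 14 tested effectors, Adcy1, a calcium-stimulated adenylyl cyclase, had the same order of subtypes as Rgs4, Rgs8 and Rgs16. It stood at 6.57, 8.20, 20.8 and 48.1 FPKM in callosal, 16.8, 40.6, 68.0 and 119.1 in subcerebral and 81.7, 128, 149.8 and 181 in corticothalamic neurons, with callosal below corticothalamic neurons by -2.99 ± 0.29 log2 units (limma, adjusted p = 0.000234). Plcb4, a phospholipase driven by Gq, was lower in callosal than in corticothalamic neurons by -1.53 ± 0.18 (limma, adjusted p = 0.000605). In all, effectors were called higher and lower in 2 and 3 genes for callosal against subcerebral, 1 and 3 for callosal against corticothalamic, and 2 and 5 for subcerebral against corticothalamic neurons. Over all genes 29.3%, 31.3% and 27.5% were called in these comparisons, so the first and second counts are near the background. Of 7 receptor kinases and arrestins, which also end receptor signals, Adrbk2 was lower in callosal than in corticothalamic neurons by -1.69 ± 0.29 (limma, adjusted p = 0.00348), 1 of 3 called lower beside 1 called higher, where 31.3% of all genes were called.

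Receptors of each class were called in both directions between subtypes. Of 24 tested receptors coupled to Gi/o, 7 were higher and 4 lower in callosal than in corticothalamic neurons, where 15.3% of all genes were called higher and 16% lower. Grm2, a glutamate autoreceptor, was higher in callosal neurons by 3.33 ± 0.17 log2 units (limma, adjusted p = 1.28e-05) and its close relative Grm3 lower by -2.29 ± 0.36 (adjusted p = 0.00238). Of 8 tested receptors coupled to Gq, 1 was higher and 4 lower in the same comparison. The 1 called higher was Chrm1, a muscarinic receptor (1.13 ± 0.16, limma, adjusted p = 0.00122). In the other direction, Htr2a stood at 0.174 to 0.310 FPKM in callosal and at 2.04 to 2.70 FPKM in corticothalamic neurons. At P1, 13 Gi/o receptors were higher and 2 lower than at E15, and 4 Gq receptors were higher and none lower. Of 10 tested immediate early genes 3 were higher and 3 lower at P1. Over all genes 67.4% were called in that comparison, 33.8% higher and 33.6% lower. In either direction together none of these 3 counts exceeds the background, but the receptor calls lay mostly on the higher side.

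The genes most like each member over the 12 groups were found by the Pearson correlation of log2(FPKM + 1) over all named tested genes, as a description with no test. Nearest to Rgs4 was another RGS gene, Rgs20 (0.97), followed by Glt1d1 (0.97) and Rtl1 (0.95). Nearest to Rgs8 were Fgfr4 (0.98), a growth factor receptor, Ngfr (0.95), the p75 neurotrophin receptor, and Sec24d (0.95). Nearest to Rgs16 were Bcl2 (0.97), an inhibitor of cell death, E130114P18Rik (0.97) and Grip1 (0.97). Rgs7 ran with Gas6 (0.99), Mapre2 (0.98) and Siae (0.98), and Rgs6 with Thra (0.95), Fgd1 (0.95) and Sybu (0.95). Rgs10 was nearest to Odf2 (0.96), Cisd3 (0.96) and AK021007 (0.96), and Rgs12 to Gclc (0.98), Btg1 (0.97) and Ccdc117 (0.97). Rgs2 had the lowest values, with Cables1 (0.91), Ampd3 (0.89) and Arhgap18 (0.88). The 12 groups share 4 stages and 3 subtypes, so high values were available to many genes.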

How the data were processed

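RNA was measured in sorted callosal, subcerebral and corticothalamic neurons, with 24 libraries in the labels. The authors made the table with TopHat2 and Cufflinks on the mouse build mm9, per the submitters' processing notes; for versions, annotation, strand setting and how the 2 libraries became a pooled value, the sources used here give nothing. No unit stands in its header, and the deposited values are taken to be FPKM because Cufflinks was used and because of their range. Depth is unknown and reads shared between related or overlapping genes cannot be separated.

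Since there are no library columns, the planned tests over libraries gave way to fits over the 12 pooled values. limma 3.58.1 in R 4.3.3 was run with trend and robust moderation on log2(FPKM + 1), for the 13946 of 32310 genes at 1 FPKM or more in at least 2 groups. Terms for stage and subtype left 6 residual degrees of freedom, and terms for period by subtype left 4. p-values were adjusted over all tested genes (Benjamini-Hochberg, threshold 0.05), and the fits were tested on simulated data. Named were all 10 members, at most 4 called genes of a pathway list in a comparison, those with the largest differences, and the 3 named genes most correlated with each tested member. Some listed genes are also named for their values and not by this rule, Gpr158, Npas4 and Htr2a among them. The members and lists were chosen with earlier results of these data known. Promoters came from RefSeq, GRCm38.p6. Alternatives changed the pseudocount, filter, scaling, moderation, stages and subtypes.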

Additional observations from a re-analysis of the deposited data

How the results depend on the processing

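Of 56 comparisons of a tested member, 15 passed the threshold. Of these, 9 passed under every alternative run, 6 were lost under some and 0 changed sign: Rgs7 and Rgs12 for callosal against subcerebral, Rgs12 and Rgs16 for subcerebral against corticothalamic neurons, and Rgs8 and Rgs16 for P1 against E15 were lost under some. Of the 41 others, 13 passed under some alternative. The pooled values hold no library spread and no depth, so neither can be weighed.

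Members called in callosal against subcerebral neurons numbered 3, and 1 with no filter, without E16, without E18, without P1 or without the E16 callosal value, an alternative chosen after seeing the data, as was leaving out the E15 subcerebral or the E15 callosal value. With no filter Rgs7 and Rgs12 were at an adjusted p of 0.0548 and 0.0645 (limma). Without the E15 callosal value 2 were called. In subcerebral against corticothalamic neurons 3 were called, and 6 without E15, 5 without the E15 subcerebral value, 4 without the E15 callosal value, and 1 without E16 or without E18. For changes between periods 0 were called, and 2 in each of the 3 comparisons without E16, and 1 in each callosal comparison without the E16 callosal value. Over all genes, calls in the 3 subtype comparisons numbered 4093, 4361 and 3835, and 1117, 1868 and 330 without E16, 1016, 2024 and 251 without E18. Without E15, 6179 and 6258 were called in the comparisons of callosal and of corticothalamic with subcerebral neurons, without P1, 2230 and 1051, and with only the subtypes compared, 2606 and 2409. Without the E16 callosal value callosal comparisons had 2174 and 2812 calls, and without the E15 subcerebral value subcerebral against corticothalamic had 6132. Between periods, where 0, 0 and 5 genes were called, 1998, 778 and 1527 were called without E16, 154 and 265 in the callosal comparisons without the E16 callosal value, and at most 30 under the others. The cause was not tested.

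A common column sum moved the median of all genes to -0.11 log2 units for subcerebral against corticothalamic neurons, to -0.13 for P1 against E15 and to 0.13 for the change of callosal against subcerebral neurons.

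Values of uncalled comparisons changed sign in 43 cases, and 1 of these passed: Rgs6 at P1 against E15, -0.89 without callosal neurons. Callosal against subcerebral, Rgs6 was 0.18 without E15. Callosal against corticothalamic, Rgs7 was 0.12 without E15, and Rgs12 was -0.025 with quantile normalization, -0.057 with a common column sum and -0.063 without P1. Subcerebral against corticothalamic, Rgs2 was -0.036 with a common column sum, -0.068 without E16 and -0.14 without E18. For the change of callosal against subcerebral between periods, values without E15 were -0.50 for Rgs8 and -0.27 for Rgs16. Without E16 they were -0.36 for Rgs4 and 0.081 for Rgs10, without E18 0.033 for Rgs2 and 0.13 for Rgs10, and without P1 -0.17 for Rgs8. Rgs4 was -0.054 without the E16 callosal value, Rgs10 was 0.021 with a common column sum, and without the E15 subcerebral value Rgs2, Rgs8 and Rgs16 were 0.033, -0.37 and -0.088. For the change of callosal against corticothalamic, Rgs2 and Rgs8 were 0.13 and 0.10 without E16, Rgs2 and Rgs12 were 0.065 and -0.047 without P1, and Rgs8 was 0.37 without the E16 callosal value. For the change of subcerebral against corticothalamic, values without E15 were -0.31 for Rgs2, -0.085 for Rgs4, 0.094 for Rgs8, 0.74 for Rgs16 and 0.25 for Rgs6. Without the E15 subcerebral value they were -0.18, -0.21, 0.22, 0.93 and 0.67 in the same order. Rgs2 was -0.38 without E18, and Rgs8 was 0.043 without P1. Without the E15 callosal value Rgs6 was 0.12 for callosal against subcerebral neurons and -0.61 for P1 against E15, and Rgs7 was 0.0016 for callosal against corticothalamic neurons. For the change of callosal against subcerebral between periods, Rgs8 was then -0.23 and Rgs7 was -0.0041.

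No paired analysis was possible because the table has 1 pooled column a group and none for a replicate number, and leaving out each replicate was not run for the same reason.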
